A study of Mus musculus with 9 samples.

Results

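Transcripts of p53 and 9 of its target genes were compared between the ages of 3, 19 and 24 months in stem cells of the hair follicle, taken from male mice of the strain C57BL/6J. The 10 genes, Trp53, Mdm2, Ccng1, Bax, Perp, Phlda3, Zmat3, Sesn1, Aen and Trp53inp1, were taken by symbol from a table of 37980 rows, where each had 1 row. All 10 stood above 1 FPKM (fragments scaled by transcript length and by the number mapped in the library) in every library and were tested. The cells had been sorted from whole back and belly skin with antibodies to CD34 and CD49f, which mark the follicle bulge, and each age had 3 libraries, with no allele or treatment named for any group. Whether each library is its own animal is not stated in the labels, and p-values then measure only how far libraries spread, which could be technical spread.

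p53 is a transcription factor that is held at a low level by the ubiquitin ligase Mdm2 and is stabilised by phosphorylation after DNA damage or other stress. It then switches on genes that stop the cell cycle, restrain growth signalling, repair DNA or start apoptosis, and it switches on Mdm2, which closes a feedback loop. Because p53 is regulated chiefly as a protein, the level of Trp53 transcript is not a measure of p53 activity, whereas its targets respond at the RNA level. In skin the relative p63 keeps the epithelial stem cell programme and shares some targets with p53, among them Perp. The question put to these data was how the level of the 10 transcripts differed between the ages.

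1 of the 10 genes passed the test at any age comparison. Perp, a tetraspan membrane protein of desmosomes that takes part in p53-dependent apoptosis, fell between 3 and 24 months from 1625 ± 185 to 1013 ± 187 FPKM (SD, n = 3 each). Trp53 itself stood at 124 ± 20.6, 162 ± 2.77 and 142 ± 18.8 FPKM at 3, 19 and 24 months, differences that did not pass. Trp53inp1 and Sesn1 had lower means at both older ages than at 3 months and came closest to the threshold without reaching it. Mdm2, the transcript of the feedback loop, differed by at most 18.7% between the means of any 2 ages. The test was limma on log2(FPKM + 1), with Benjamini-Hochberg adjustment over 11509 protein-coding genes and a threshold of 0.05. At 24 against 3 months 3.84% of all these genes passed. The call of Perp was kept in 5 of 9 fits that left out 1 library. Among the 5 were those without a 19-month library, which enters the comparison of 24 with 3 months only through the shared estimate of the spread. The call was lost with median centring, with no filter on low values, with the replicate number as a block and with every row of the table in the fit.

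Promoter sequence is shown for the genes that hold the p53 decamer, the 10-base unit that p53 response elements repeat. RefSeq promoter windows (GRCm38.p6, 250 bases before to 50 bases after a start site) were found for 7 of the 10 genes, in 9 windows, and not for Perp, Zmat3 and Trp53inp1. The decamer consensus is its own reverse complement, so that 1 search covers both strands. It was found in windows of 6 of the 7 genes, Phlda3 being the exception. Counted by window it was in 7 of the 9, the 1 match of Aen being in 2 windows, and in 8.36% of all 32851 windows of the same length. The stretches run 5′ to 3′ on the strand of the gene, with the decamer in capitals.
Ccng1, chr11:40755437-40755496, minus strand: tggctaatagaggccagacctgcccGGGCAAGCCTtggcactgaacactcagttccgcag
Mdm2, chr10:117710910-117710969, minus strand: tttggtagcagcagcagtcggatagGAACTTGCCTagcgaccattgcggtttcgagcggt
Bax, chr7:45467065-45467124, minus strand: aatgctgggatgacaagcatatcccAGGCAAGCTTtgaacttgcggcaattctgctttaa
Sesn1, chr10:41887241-41887300, plus strand: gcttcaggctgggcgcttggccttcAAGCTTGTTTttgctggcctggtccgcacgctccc
Trp53, chr11:69580259-69580318, plus strand: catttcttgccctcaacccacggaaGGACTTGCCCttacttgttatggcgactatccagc
Aen, chr7:78895927-78895956, plus strand: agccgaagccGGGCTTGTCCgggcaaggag
The Ccng1 decamer began 185 bases before the start site. It was the later unit of a 20-base stretch, begun at 195 bases before, that departed from a pair of adjoining decamers at 1 base. A pair of adjoining decamers with at most 2 departing bases was present in 0.798% of all windows, and among these genes it was found in Ccng1 alone. The decamers of Mdm2, Bax, Sesn1 and Trp53 began 186, 201, 173 and 75 bases before a start site. That of Aen lay in an annotated exon, 11 bases after 1 start site and 121 before another, so its 2 windows hold the same match. The Sesn1 match was in 1 of its 2 windows. These matches describe letters in a window. The genome build of the expression table is NCBIM37, and only the gene symbols join the table to these sequences.

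FPKM is scaled by transcript length, so levels can be set beside each other between genes. Perp was far above the rest, between 835 and 1816 FPKM, and 99.5% of the tested genes had a lower mean over the 9 libraries. Trp53 came next, between 105 and 165 FPKM, followed by Bax (44.5 to 62.5), Sesn1 (35.4 to 71.8) and Phlda3 (33.3 to 53.9). The ranges of Perp and Trp53 overlapped no neighbour, while those of Bax, Sesn1 and Phlda3 overlapped one another. Mdm2 (13.8 to 20.8 FPKM), Trp53inp1 (7.72 to 20.01), Ccng1 (5.60 to 12.1) and Aen (5.56 to 8.19) formed a run in which each overlapped the next. Zmat3 was lowest at 2.36 to 3.81 FPKM, and 18.7% of the tested genes had a lower mean. The most variable of the 10 was Trp53inp1, whose highest library was 2.59 times its lowest, and the least variable was Bax.

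**Figure D1:**
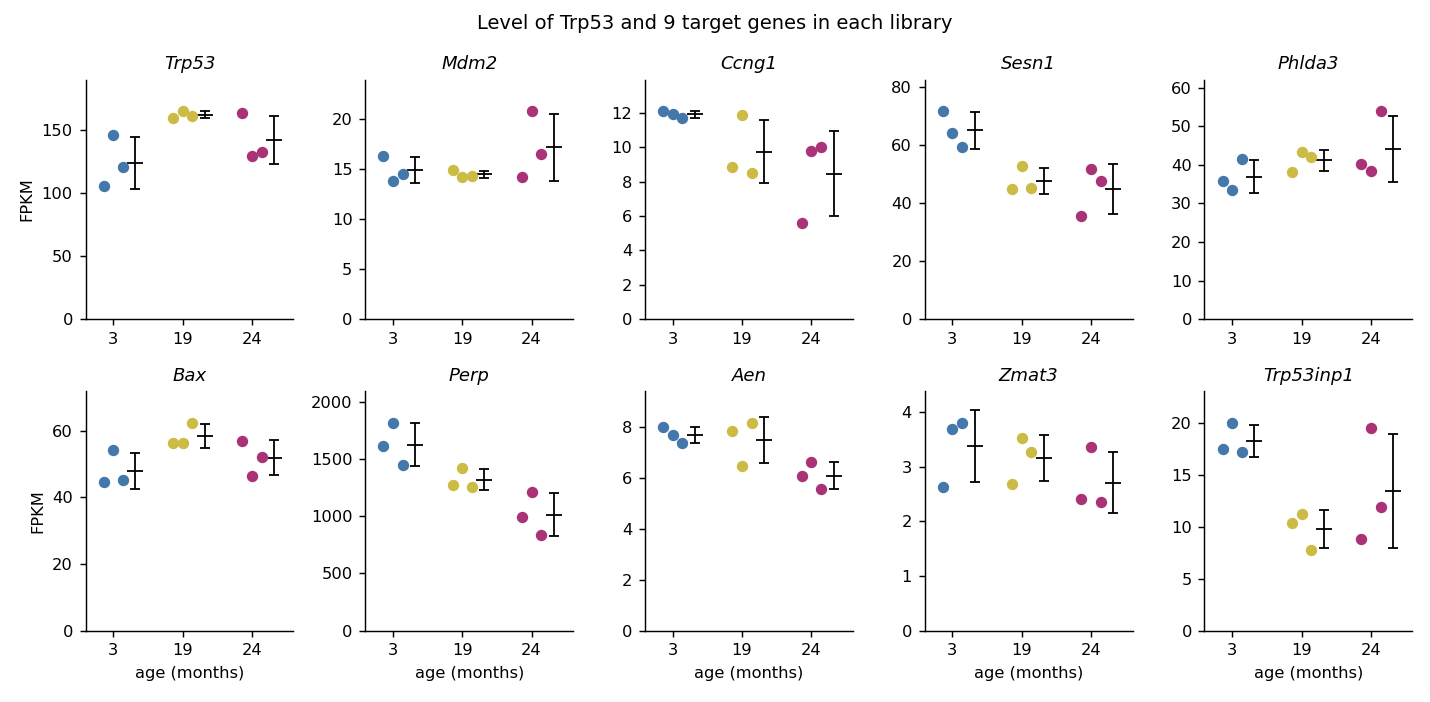
FPKM of each of the 10 genes (y axes start at 0 and differ between genes) in the 3 libraries of each age in months; points are libraries in replicate order, the bar beside them is the mean with its SD (n = 3). Perp steps down from 1446 to 1816 FPKM at 3 months to 835 to 1207 at 24 months, whereas Mdm2 stays between 13.8 and 16.5 FPKM in 8 of the 9 libraries and reaches 20.8 in the other.

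Some facts of the whole series bear on these values. The depth of each library is unknown, because the low FPKM values gave no exact step for 1 fragment. Median FPKM over the tested genes lay between 10.01 and 11.3 in the 9 libraries, and Cd34, Itga6 and Krt14, the defining transcripts of the sorted cells, were abundant. Krt15, a bulge keratin, was listed at 0 in every library and Krt5 at 19 months alone, so a 0 in this table can be a failed estimate; none of the 10 genes has a value of 0. The labels number the older libraries in 1 unbroken run and the 3-month libraries in another, and 2 barcodes used at 3 months were used again at 19 months. What the numbers stand for is not stated, and in the comparisons with 3 months anything that sets the 2 runs of numbers apart cannot be told apart from age. In bulk RNA, fewer cells of a type and less RNA per cell cannot be told apart.

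At the top of the pathway, Trp53 read 105, 146 and 121 FPKM at 3 months (replicates 1 to 3), 160, 165 and 161 FPKM at 19 months, and 164, 130 and 133 FPKM at 24 months (replicates 2 to 4). The 19-month libraries lay close together and above all 3 of the 3-month libraries, and the 24-month libraries overlapped both ages. The log2 difference of 19 against 3 months was 0.39 ± 0.14 (SE, 95% interval 0.09 to 0.70, unadjusted), with limma adjusted p = 0.191. Against 3 months the 24-month difference was 0.20 ± 0.14 (adjusted p = 0.453), and it was 0.087 without 3 months replicate 1 and 0.32 without 3 months replicate 2. No exon of Trp53 overlaps another gene in the GENCODE M21 annotation. Its processed pseudogene Trp53-ps was listed at 0 in all 9 libraries, but a 0 in this table can be a failed estimate.

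Mdm2, the ligase that marks p53 for degradation and the best known readout of p53 activity, read 16.3, 13.8 and 14.6 FPKM at 3 months, 14.9, 14.2 and 14.3 at 19 months, and 14.2, 20.8 and 16.5 at 24 months. The ages overlapped in every comparison, and 1 library, 24 months replicate 3, stood above the other 8. The log2 difference of 24 against 3 months was 0.18 ± 0.15, with an interval of -0.15 to 0.51 (limma adjusted p = 0.531), and was 0.041 without that library and 0.30 without 24 months replicate 2. That of 19 against 3 months was -0.04 ± 0.15 (interval -0.37 to 0.29, adjusted p = 0.936; its sign turned under median centring, to 0.012). A p that misses the threshold does not show that these levels were the same.

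The other inhibitor of p53 was lower at both older ages without passing. Mdm4, which masks the activation domain of p53, read 8.54, 6.90 and 7.63 FPKM at 3 months, 5.76, 4.04 and 4.58 at 19 months, and 3.49, 6.73 and 5.01 at 24 months. Every older library was below every 3-month library. The log2 differences were -0.59 ± 0.20 and -0.55 ± 0.20 at 19 and 24 months (limma adjusted p = 0.161 and 0.136). Cdkn2a, whose alternative product Arf blocks Mdm2, had no value above 0.108 FPKM in any library and was not tested.

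Among the targets that act on growth and the cell cycle, Sesn1 encodes a sestrin, which restrains the growth kinase complex mTORC1. It read 71.8, 64.2 and 59.3 FPKM at 3 months, 44.96, 52.9 and 45.4 at 19 months, and 35.4, 51.8 and 47.6 at 24 months. All 6 older libraries were below all 3 young ones, and the older ages overlapped each other. The log2 differences from 3 months were -0.44 ± 0.15 at 19 months (limma adjusted p = 0.167) and -0.54 ± 0.15 at 24 months (adjusted p = 0.0616). The latter passed with quantile normalisation (adjusted p = 0.0474) or without 24 months replicate 3 (adjusted p = 0.0407), and without 24 months replicate 2, its lowest library, the sign between the older ages turned. The paralogs were low: Sesn2 lay between 0.289 and 1.63 FPKM and was not tested, and Sesn3 stood at 1.35, 1.38 and 1.21 FPKM on average at 3, 19 and 24 months.

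Ccng1 encodes cyclin G1, which recruits a phosphatase that activates Mdm2. It read 12.1, 12.0 and 11.7 FPKM at 3 months, a spread of 0.209 FPKM (SD), then 8.85, 11.9 and 8.53 at 19 months and 5.60, 9.79 and 10.04 at 24 months. At 24 months all 3 libraries were below the young range, with replicate 2 lowest by far, and at 19 months replicate 2 was inside it. The log2 difference was -0.28 ± 0.20 at 19 months (limma adjusted p = 0.526) and -0.49 ± 0.20 at 24 months (adjusted p = 0.170). The latter was -0.24 without 24 months replicate 2 (adjusted p = 0.455).

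Phlda3, a pleckstrin homology protein that competes with Akt for membrane lipids, read 35.7, 33.3 and 41.6 FPKM at 3 months, 38.2, 43.4 and 41.9 at 19 months, and 40.1, 38.4 and 53.9 at 24 months. The ages overlapped, and the highest value was in 24 months replicate 4. Its log2 differences from 3 months were 0.16 ± 0.15 and 0.24 ± 0.15 (limma adjusted p = 0.644 and 0.370). The 24-month value was 0.093 without replicate 4 of that age.

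Trp53inp1 encodes a stress protein that promotes p53 phosphorylation and autophagy, and it had the widest spread of the 10. It read 17.5, 20.01 and 17.2 FPKM at 3 months, 10.3, 11.2 and 7.72 at 19 months, and 8.85, 19.5 and 11.9 at 24 months. The 19-month libraries were all below the 3-month ones, while 24 months replicate 3 lay within the 3-month range and replicates 2 and 4 of that age lay below it. The log2 difference of 19 against 3 months was -0.85 ± 0.22, the widest of the 10 genes at any comparison (interval -1.32 to -0.38, limma adjusted p = 0.0702). Without 24 months replicate 2 or 3, libraries that enter this comparison only through the shared estimate of the spread, the adjusted p was 0.0373 and 0.0239. At 24 months the difference was -0.48 ± 0.22 (adjusted p = 0.225), and it was -0.77 without replicate 3 of that age (adjusted p = 0.0391) and -0.24 without replicate 2 (adjusted p = 0.560).

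**Figure D2:**
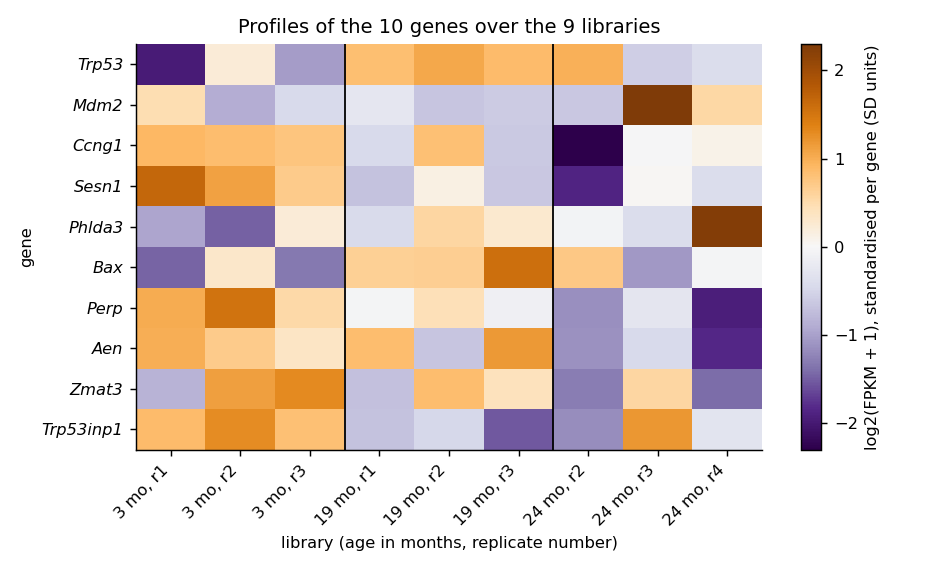
Heat map of the 10 genes (rows) over the 9 libraries (columns, by age in months and replicate number), coloured by log2(FPKM + 1) standardised per gene in SD units. Ccng1, Sesn1 and Trp53inp1 are high in all 3 libraries of 3 months, Trp53 and Bax are high in all 3 libraries of 19 months, and the 24-month libraries differ from one another, with Mdm2 highest in replicate 3 and Phlda3 in replicate 4.

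Of the apoptosis genes, Bax, which opens the outer mitochondrial membrane, read 44.5, 54.3 and 45.3 FPKM at 3 months, 56.4, 56.5 and 62.5 at 19 months, and 57.0, 46.5 and 52.2 at 24 months. As for Trp53, the 19-month libraries were above the 3-month range and the 24-month libraries overlapped it. The log2 difference of 19 against 3 months was 0.28 ± 0.13 (limma adjusted p = 0.320). An exon of Bax overlaps the gene model Gm45808 on the same strand in GENCODE M21, so its value is less certain.

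Perp read 1612, 1816 and 1446 FPKM at 3 months, 1274, 1421 and 1254 at 19 months, and 996, 1207 and 835 at 24 months. No age overlapped another, and the order of the ages was the same for every pair of libraries. At 24 against 3 months the log2 difference was -0.69 ± 0.17 (interval -1.04 to -0.34, limma adjusted p = 0.0323), and all 3 libraries of 24 months were below all 3 of 3 months. The differences of 19 against 3 months, -0.30 ± 0.17, and of 24 against 19 months, -0.39 ± 0.17, did not pass (adjusted p = 0.397 and 0.328). The call at 24 months was kept in 5 of the 9 fits that left out 1 library. Among the 5 were those without a 19-month library, which enters the comparison of 24 with 3 months only through the shared estimate of the spread. The rest of the 5 were those without 3 months replicate 3 or 24 months replicate 3. The call was lost without 3 months replicate 1 or 2 (adjusted p = 0.0591 and 0.117) or without 24 months replicate 2 or 4 (0.0749 and 0.148). It was also lost with every row of the table in the fit (adjusted p = 0.116), with no filter on low values (0.103) and with median centring (0.0601). The replicate number as a block ended it too (0.147). With every row or no filter the log2 difference is the same by construction, and in the other fits that lost the call it stayed below 0.

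Perp belongs to desmosomes, the cell junctions that tie keratin filaments together, and 8 other desmosome genes were tested; this list was drawn up after the values of Perp were seen. At 24 against 3 months the desmosomal cadherin gene Dsc3 fell from 266 ± 44.4 to 160 ± 30.5 FPKM (log2 difference -0.73 ± 0.17, limma adjusted p = 0.0261). The call was lost without 3 months replicate 2 or 3 (adjusted p = 0.112 and 0.0619) or without 24 months replicate 2 or 4 (0.0858 and 0.0742). Dsg3, another desmosomal cadherin gene, fell from 66.2 ± 9.98 to 33.6 ± 9.99 FPKM (log2 difference -0.99 ± 0.18, adjusted p = 0.0104), a call lost without 3 months replicate 2 (0.0562). The plaque genes Dsp, Jup, Pkp1 and Pkp3 stood at log2 differences between -0.27 and 0.03, and none passed. Of the 8 genes 2 passed, both as lower, where 2.34% of all tested genes passed in that direction. The 8 lay on both sides of 0, with 5 below and 3 above, up to 0.097. With every row of the table in the fit, 0 of the 8 passed. Trp63, which encodes p63, read 278, 352 and 301 FPKM at 3 months, 222, 250 and 247 at 19 months, and 186, 250 and 208 at 24 months. All older libraries were below the young ones, with log2 differences of -0.37 ± 0.14 (limma adjusted p = 0.229) and -0.53 ± 0.14 (adjusted p = 0.0513). The latter passed without 24 months replicate 3 (adjusted p = 0.0287) or 3 months replicate 1 (0.0483) and with quantile normalisation (0.0235). The part of these genes in the fall of Perp was not tested.

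Aen, an apoptosis-enhancing nuclease, read 8.01, 7.72 and 7.39 FPKM at 3 months, 7.88, 6.48 and 8.19 at 19 months, and 6.10, 6.66 and 5.56 at 24 months. The 24-month libraries were all below the 3-month ones, by a log2 difference of -0.29 ± 0.16 (limma adjusted p = 0.285), and 19 months overlapped both. Zmat3, an RNA-binding zinc finger protein that acts in p53-dependent growth control, read 2.62, 3.70 and 3.81 FPKM at 3 months, 2.69, 3.52 and 3.26 at 19 months, and 2.41, 3.35 and 2.36 at 24 months. Its ages overlapped throughout, with log2 differences of -0.067 ± 0.19 and -0.24 ± 0.19 from 3 months (adjusted p = 0.894 and 0.495). On the log2(FPKM + 1) scale the change of a gene as low as Zmat3 is understated.

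**Figure D3:**
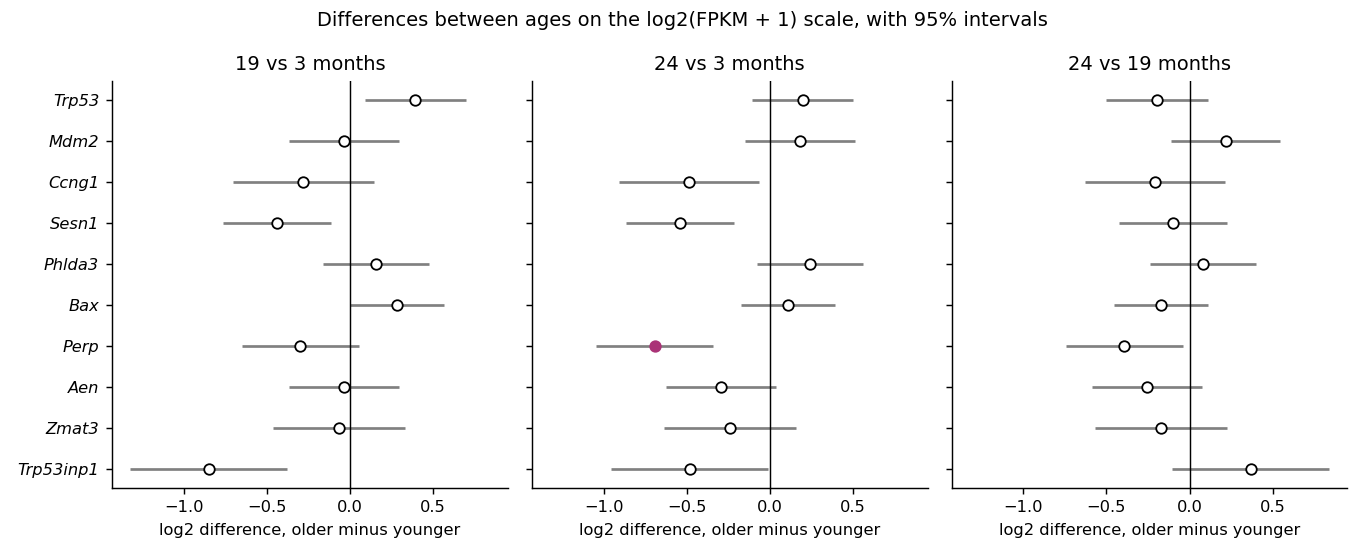
Log2 difference between ages (x axis, older minus younger, on the log2(FPKM + 1) scale) for the 10 genes in the 3 comparisons; lines are 95% intervals from limma, not adjusted for the number of genes, and the filled point passed the adjusted threshold. Perp at 24 against 3 months is the 1 filled point, at -0.69, and the interval of Trp53inp1 at 19 against 3 months lies furthest below 0 among the open points.

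Counted together, 0 of the 10 genes passed at 19 against 3 months, where 1.56% of the 11509 tested genes did (0.6% higher and 0.964% lower), and 3 had an unadjusted p under 0.05, against 15.7% of all genes. At 24 against 3 months 1 of 10 passed, against 3.84% of all genes (1.5% higher and 2.34% lower), and 4 had an unadjusted p under 0.05, against 21.6%. At 24 against 19 months 0 of 10 passed, against 0.93% (0.712% higher and 0.217% lower), and 1 had an unadjusted p under 0.05, against 12.8%. With every row of the table in the fit, 0 of 10 passed at each comparison. Between 3 and 19 months the libraries of 2 genes, Trp53 and Bax, did not overlap in the higher direction (11% of all genes), and those of 3, Perp, Sesn1 and Trp53inp1, did not overlap in the lower (11.6%). Between 3 and 24 months 4 genes, Ccng1, Perp, Sesn1 and Aen, did not overlap in the lower direction (12% of all genes) and 0 in the higher (10.6%). Between 19 and 24 months Perp alone did not overlap, in the lower direction (10.4% of all genes, and 7.94% in the higher). The comparisons with 3 months share its libraries and are therefore not independent of each other.

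The 10 genes did not share 1 direction. At 24 against 3 months 6 lay below 0 and 4 above, with a median log2 difference of -0.27 against -0.0037 over all tested genes. At 19 against 3 months 7 lay below 0 and 3 above, with a median of -0.052 against 0.0059. Their lowest value of the 9 libraries was at 24 months for 5 genes, at 3 months for 4 and at 19 months for 1, and the highest was at 3 months for 5, at 19 months for 3 and at 24 months for 2. Trp53, Bax, Phlda3 and Mdm2 had their lowest value at 3 months. Likeness between profiles was measured as the root mean square difference between standardised log2 profiles over the 9 libraries, as a description. By it Bax was the member nearest to Trp53, at 0.400 SD units, and the other 8 lay between 1.33 and 1.85. Sesn1 and Aen were the members nearest to Perp, at 0.700 and 0.706. Over all tested genes, those most like Trp53 were Mdh2, mitochondrial malate dehydrogenase (0.232), and Aldoa, the glycolytic aldolase (0.241). Those most like Perp were Znrf3, a ubiquitin ligase that removes WNT receptors (0.205), Ascc2 (0.241) and Hps1 (0.241).

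Further p53 targets, in 5 lists by role, were read beside these 9. Of 67 listed genes 66 were in the table and 56 were tested. At 19 against 3 months 1 passed in the higher direction and 0 in the lower, at 24 against 3 months 3 higher and 2 lower, and at 24 against 19 months 1 higher and 0 lower. Of all tested genes 1.56%, 3.84% and 0.93% passed at these comparisons. Their median log2 differences were -0.00023, -0.020 and -0.035, beside 0.0059, -0.0037 and -0.018 over all tested genes. With every row of the table in the fit, 0 of the 56 passed at any comparison, and 11, 15 and 16 had an unadjusted p under 0.05 in the fit of protein-coding genes, where 15.7%, 21.6% and 12.8% of all tested genes did.

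Of 9 tested genes of cell cycle arrest, 2 passed as higher at 24 against 3 months, where 1.5% of all tested genes did. At that comparison 4 of the 9 lay above 0 and 5 below, with a median log2 difference of -0.015. Btg2, an antiproliferative gene that is also an early response gene, rose from 44.9 ± 6.81 to 79.1 ± 13.6 FPKM (log2 difference 0.80 ± 0.16, limma adjusted p = 0.0125), a call kept in all 9 fits that left out 1 library. At 24 against 19 months it passed narrowly (adjusted p = 0.0499), a call kept in 1 of those 9 fits (up to 0.211, without 19 months replicate 2) and lost with pseudocount 0.1 (0.0555), quantile normalisation (0.0550) and median centring (0.0607). Plk3, a stress-responsive kinase, rose from 1.32 ± 0.612 to 3.25 ± 0.715 FPKM (adjusted p = 0.0486), a call kept in 2 of the 9 fits, those without 19 months replicate 1 or 3 (up to 0.133 in the rest, without 3 months replicate 1). Cdkn1a, the p21 inhibitor through which p53 arrests the cell cycle, read 26.1, 19.5 and 23.5 FPKM at 3 months, 29.1, 21.5 and 19.1 at 19 months, and 36.5, 23.1 and 24.8 at 24 months. Its ages overlapped, and its log2 difference of 24 against 3 months was 0.26 ± 0.19, with an interval of -0.15 to 0.67 (adjusted p = 0.468), and 0.062 without 24 months replicate 2, its highest library. At 19 against 3 months it was -0.0021 ± 0.19, and its sign turned to 0.046 with median centring.

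A set of early response genes that are known to be induced during tissue dissociation was read as a further list. Of 12 such genes, all 12 lay above 0 at 24 against 3 months and 5 passed, where 1.5% of all genes passed in that direction, and 0 passed with every row of the table in the fit. Their median log2 difference was 0.93, and the summed level was 366 to 560 FPKM at 3 months, 435 to 929 at 19 months and 763 to 1507 at 24 months. None of the 12 stood at 0 in every library. The part of that induction in the rise of Btg2 and Plk3 was not tested.

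Of 12 tested metabolic and redox targets, Fdxr was the 1 that passed. Fdxr, the mitochondrial ferredoxin reductase, fell from 9.70 ± 1.52 to 4.73 ± 1.21 FPKM between 3 and 24 months (log2 difference -0.91 ± 0.18, limma adjusted p = 0.0131), and its 19-month libraries, at 7.16 to 8.02 FPKM, lay between the other ages. The call was lost without 24 months replicate 4 (adjusted p = 0.0534). Of 17 other direct targets, Kitl, the ligand of the receptor Kit on melanocytes, fell from 13.7 ± 2.64 to 6.15 ± 0.819 FPKM at 24 months (log2 difference -1.03 ± 0.18, adjusted p = 0.00628), a call kept in all 9 fits that left out 1 library. Slc19a2, a thiamine transporter, rose from 1.81 ± 0.405 to 3.43 ± 0.211 FPKM (adjusted p = 0.0486), a call lost in each of those 9 fits (0.0567 to 0.136, the latter without 24 months replicate 4). Sertad3, a transcriptional coregulator, rose at 19 against 3 months from 23.9 ± 3.68 to 43.0 ± 6.17 FPKM (log2 difference 0.82 ± 0.16, adjusted p = 0.0158), and the call was lost without 3 months replicate 3 (adjusted p = 0.0556) or 19 months replicate 1 or 2 (0.0517 and 0.0545). Of 11 tested apoptosis targets and 7 DNA repair targets, 0 passed limma's test at any comparison (smallest adjusted p = 0.0690 and 0.118), and in the fit of every row the count was again 0. At 24 against 3 months 2 of the 11 and 2 of the 7 had an unadjusted p under 0.05.

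Of 23 tested regulators of p53, a list that holds its kinases, ligases and relatives, 1 passed at 24 against 3 months and 0 at the other comparisons. It was Trp73, the gene of the p53 relative p73, which fell from 13.0 ± 0.928 to 8.09 ± 0.914 FPKM (log2 difference -0.63 ± 0.15, limma adjusted p = 0.0325). The call was lost with median centring (adjusted p = 0.0508) and when 1 of 4 libraries was left out: 3 months replicate 2 (0.101) or 3 (0.0807), or 24 months replicate 3 (0.0690) or 4 (0.117). The calls of Perp, Btg2, Plk3, Fdxr, Kitl, Slc19a2, Sertad3 and Trp73 were all lost with every row of the table in the fit (adjusted p between 0.0589 and 0.249), and those other than that of Kitl also with no filter on low values (0.0594 to 0.196). Pseudocount 0.1 ended the calls of Plk3 and Slc19a2 (0.0612 each). Transcript levels of the p53 family stood in the same order at each age, with Trp63 above Trp53 and Trp53 above Trp73 in all 9 libraries.

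**Figure D4:**
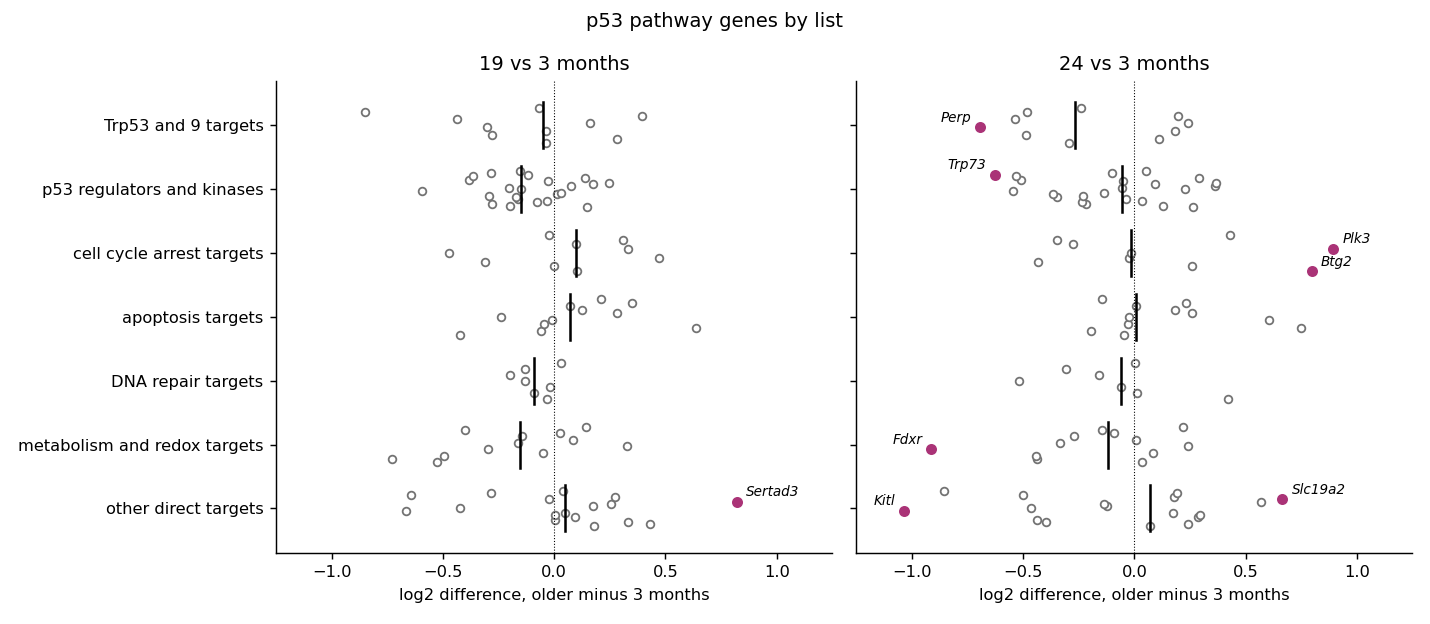
Log2 difference from 3 months (x axis, log2(FPKM + 1) scale) of each tested gene of the p53 pathway at 19 months (left) and 24 months (right), by list; open points did not pass, filled and named points passed the adjusted threshold, and black bars are list medians. The points of every list lie on both sides of 0, and those that passed at 24 months include Btg2 and Plk3 above 0 and Perp, Trp73, Fdxr and Kitl below it.

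Among 8 tested markers of the hair follicle stem cells themselves, 2 passed as higher at 19 against 3 months, where 0.6% of all genes did. At 24 against 3 months 1 passed as lower, where 2.34% of all genes passed as lower and 1.5% as higher. With every row of the table in the fit, 0 of the 8 passed. Between 3 and 24 months 4 of the 8 lay above 0 and 4 below, with a median log2 difference of 0.11. The lower 1 was Lgr5, a stem cell receptor of WNT enhancers, at a log2 difference of -1.01 ± 0.17 (limma adjusted p = 0.00581), a call kept in all 9 fits that left out 1 library. Cells of other types could add to these values. Fibroblast markers, 6 in number, summed to 5.99 to 8.75 FPKM at 3 months and 9.42 to 16.7 FPKM at 24 months, each older library being above each young one, and 7 immune cell markers to 28.7 to 63.4 and 28.7 to 54.4 FPKM. Of these, 3 and 4 were under 1 FPKM in every library. Endothelial markers, 5 in number, summed to 11.8 to 14.2 FPKM at 3 months and 5.62 to 7.24 FPKM at 24 months. Of the 5 only 2 were tested, and these 2 were called lower. The defining Pecam1, Cdh5 and Kdr were under 1 FPKM in every library and were not tested. The 8 sebaceous gland markers had 5 called lower at 24 against 3 months and 1 higher, with summed levels of 311 to 403 FPKM at 3 months and 414 to 509 FPKM at 24 months. The 6 suprabasal epidermis markers summed to 392 to 446 FPKM at 3 months and 448 to 647 at 24 months, with 0 called by limma and 1 at an unadjusted p under 0.05. The 5 melanocyte markers, among them 1 called lower, summed to 36.4 to 45.4 and 28.7 to 34.3 FPKM. With every row of the table in the fit, 1 endothelial, 1 sebaceous and 0 melanocyte markers passed at 24 against 3 months. The part of these markers and cells in the fall of Perp, Fdxr and Kitl was not tested.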

How the data were processed

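The deposited table gives 1 FPKM value per row and library, made by the authors with TopHat and Cuffdiff on NCBIM37, per the submitters' processing notes; no version or setting is named, and these are not given in the sources used. All 9 value columns were matched to samples by the descriptions in the labels. Gene types came from GENCODE M21 by Ensembl identifier (32916 of 37980 rows matched). limma 3.58.1 in R 4.3.3, with a mean-dependent prior variance, was fitted to log2(FPKM + 1) of all 9 libraries, age as the 1 factor, two-sided, on 11509 protein-coding genes that reached 1 FPKM in 3 or more libraries. Of the whole table, 36 rows that were at 0 in every library of 1 age and at 5 FPKM or more in every library of another were left out. This fit was known from earlier results to call more genes than 1 of every row (14275 rows), and the latter is given where it ends a call. The fit was tested on simulated data. Their noise was independent between genes and libraries, so they do not cover shifts that the genes of a library share.

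The members and gene lists were chosen with earlier results of these data known. Named were every member, Mdm4, Cdkn1a, Trp63 and Cdkn2a, up to 6 called genes of each p53 list, and the 3 genes most like Trp53 and each called member, of which 1 is not reported here; marker lists are given as counts, apart from Lgr5. The desmosome list was added after the values were seen. FPKM depends on what else a library holds, so a level can differ without a change in its own RNA. Alternatives were another gene set, pseudocount, filter, scaling, a replicate block and leaving out each library.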

Additional observations from a re-analysis of the deposited data

How the results depend on the processing

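Of all tested genes 180 passed at 19 against 3 months, 442 at 24 against 3 months and 107 at 24 against 19 months. In that order, with every row of the table in the fit 40, 29 and 7 passed, and with no filter on low values 53, 118 and 0; quantile normalisation gave 59 at 24 against 19 months. Leaving out 1 library gave 69 to 230, 136 to 456 and 20 to 216. Median centring turned the split at 24 against 3 months from 173 higher and 269 lower to 216 and 190, and at 19 against 3 months from 69 and 111 to 89 and 91. Of the 10 genes, 1 passed at 24 against 3 months; 0 did with every row, no filter or median centring, 2 with quantile normalisation (Perp and Sesn1), and 0 to 3 when 1 library was left out. At 19 against 3 months that range was 0 to 1 and at 24 against 19 months 0 to 0. The cause of these differences was not tested.

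Whether replicate numbers pair the libraries was not settled. Deviations from the age means of same-numbered libraries correlated at -0.197 to 0.187 across genes, and those of differently numbered ones at -0.230 to 0.164. Deviations within an age sum to 0, which constrains these values, so they cannot decide it. A replicate block on the number fits 24 months replicate 4 exactly, because no other age has that number. The 24-month differences then rest on replicates 2 and 3 of that age. An effect of pairing therefore cannot be told apart from that of leaving replicate 4 out. With the number as a replicate block, in the same order, 253, 158 and 110 genes passed, and 0 of the 10 (Perp limma adjusted p = 0.147 at 24 against 3 months). At that comparison Trp73 (0.0866), Fdxr (0.0667), Plk3 (0.104), Slc19a2 (0.186), Dsg3 (0.0825) and Dsc3 (0.0935) did not pass with the block either, and the 24 against 3 months difference of Phlda3 was 0.057.

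Differences near 0 changed sign; each range is over the fits that left out 1 library. At 19 against 3 months these were Mdm2 (-0.085 to 0.028, turned without 3 months replicate 1, and 0.012 with median centring), Zmat3 (-0.20 to 0.017, turned without 19 months replicate 1 or 3 months replicate 3), Aen (-0.094 to 0.054, turned without 19 months replicate 2, and 0.011 with median centring and 0.022 with quantile normalisation) and Cdkn1a (-0.17 to 0.12, turned without replicate 2 or 3 of 19 months and without replicate 1 or 3 of 3 months, and 0.046 with median centring). At 24 against 19 months they were Ccng1 (-0.34 to 0.035) and Sesn1 (-0.21 to 0.059), both turned without 24 months replicate 2, Phlda3 (-0.066 to 0.17, turned without 24 months replicate 4, and -0.10 with the block) and Mdm4 (-0.15 to 0.25, turned without 19 months replicate 2 or 24 months replicate 3). Of 450 values of the 10 genes under the alternatives, 426 kept direction and side of the threshold, 11 changed sign, 5 gained a call and 8 lost one. Perp at 24 against 3 months was the 1 difference called in the main fit, and all 8 lost calls were its own. Several alternatives leave the log2 difference itself unchanged, so the 426 do not measure how firm that call was. Depth is unknown, so no limit from counting can be given.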

Other observations

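Genes of replication and mitosis that fall after p53 activation, through p21 and the DREAM repressor complex, were read as a further list. Of 21 listed genes 20 were tested, and 0 passed limma's test at any comparison, also in the fit of every row. At 24 against 3 months 3 had an unadjusted p under 0.05, where 21.6% of all tested genes did. At 24 against 3 months 14 of the 20 lay below 0, with a median log2 difference of -0.18, at 19 against 3 months 12 lay above 0, with a median of 0.16, and at 24 against 19 months 17 lay below 0, with a median of -0.31. Of all tested genes 49.5%, 50.8% and 46.8% lay above 0 in that order, with medians of -0.0037, 0.0059 and -0.018. Of the targets that did not pass the filter, Bbc3, the apoptosis activator Puma, lay between 0.263 and 0.742 FPKM, Eda2r, a TNF receptor family member, between 0.147 and 0.981 FPKM, and Gdf15, a secreted stress factor, at up to 0.0538 FPKM.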
